A study of Mus musculus with 8 samples.

Results

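The nucleosomes described here are those whose position was called at nearly the same base at 3 successive stages of wild-type (WT) mouse sperm development. The members are autosomal summits of the WT spermatocyte list that had a summit within 20 bp in the WT round spermatid list and also within 20 bp in the list of WT condensing spermatid nucleosomes. The rule chose 350789 of 5176848 autosomal WT spermatocyte summits, or 6.78% (95% Wilson interval 6.75% to 6.80%). A summit is the base with the highest coverage within a called position. The authors cut chromatin with micrococcal nuclease (MNase), which removes DNA that no protein covers, and called the protected positions on the mm9 build. Members were chosen by the summit coordinates of the 3 WT nucleosome lists, so their matches in these lists are given as a description, and "kept" means only that 3 summits coincided within the stated distance.

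Cells were enriched from testis as spermatocytes, round spermatids and condensing spermatids, from H2A.L.2-less animals, which lack this testis-specific variant of histone H2A, and from WT animals. At the condensing stage the protected DNA was separated by size, nucleosomes being taken at 130 to 170 bp and small structures at 40 to 80 bp, which gave 8 libraries with 1 per group. The sources used here do not give the strain, age or number of animals, nor a fragment size for the earlier stages. Lists of positions carry no marker of a cell type, so the stage labels could not be checked. With 1 library per group, differences between libraries are unreplicated and were not tested. Spreads given as SD are over the 19 autosomes of the same libraries, intervals cover counting error only, and the depth of single libraries is unknown within the stated 207000000 to 753000000 reads.

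A nucleosome is DNA wrapped around a core of histones, and where it sits along the DNA is set by the sequence, by bound factors and by its neighbours. In late spermatids most histones are replaced, first by transition proteins and then by protamines, which pack the sperm genome. A part of the nucleosomes stays in mature sperm. H2A.L.2 enters chromatin in late spermatids and is known for opening nucleosomes to transition proteins. The small structures are the subnucleosomal particles of the condensing stage.

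Members were found more often than moved lists gave, but a large part of their number was met by moved lists as well. With both later lists moved by 5 kb, 1.87% of spermatocyte summits fulfilled the rule, against 6.78% with the lists in place, so the observed share was 3.62 times chance. On single autosomes this ratio ran from 3.20 to 4.18 and the kept share from 6.14% to 7.69%. With the condensing list moved alone, 3.35% of summits fulfilled the rule, which is 49.4% of the observed number. With the round spermatid list moved alone the share was 1.99%. Taken singly, 38.2% of the spermatocyte summits were matched in round spermatids (12.4% after the move) and 15.4% in condensing spermatids (8.68% after the move). Which single members are chance matches was not tested.

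A match in round spermatids and a match in condensing spermatids came together little more often than their separate shares give. If the matches were independent within each decile of summit height, 6.20% of summits would be kept, and the observed share was 1.09 times that. Among spermatocyte summits matched in round spermatids 17.7% were also matched in condensing spermatids, against 14.03% of those not matched in round spermatids, with 8.76% and 8.64% after moving the condensing list.

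Close coincidence was more common than chance gives, and more so at shorter distances. Summits of round spermatids lay within 4 bp of a spermatocyte summit 3.96 times as often as after the move, at 15 to 20 bp 2.42 times, and beyond the limit, at 21 to 30 bp, 1.87 times as often. For condensing spermatids these ratios were 2.05, 1.56 and 1.39. The summit was at the very same base in all 3 lists for 21509 members, or 6.13%. After the move 4325 of 96771 matches, or 4.47%, had it at the same base. In each list over 90% of summits lie on a 10 bp grid. The 187854 members just inside the limit, with their farther match at 15 to 20 bp, had a median fuzziness score of 52.6. The 207996 summits just outside, at 21 to 30 bp, had a median of 52.9. A counterpart in all 3 H2A.L.2-less nucleosome lists was present for 8.13% of summits just inside the limit and for 5.87% just outside.

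Higher summits were kept more often. The spermatocyte summits were divided by their summit value, the height of the coverage, into deciles that are of unequal size (142984 to 826427 summits) because the values are multiples of 4. In the lowest decile 3.12% of summits were kept (1.71% after the move), and in the highest decile 13.9% (2.10% after the move). The highest decile held 22.6% of all members. Among the highest 1% of summits 27.8% were kept, and among the highest 0.1% the share was 54.4%, with 6.36% after the move. The highest summit of the spermatocyte list, on chromosome 2 at 98507311, stood at 92505 times the list's median and was itself kept. The sources used here do not say how multiply aligned reads, such as those of repeats, were treated. Whether summits this high are single positions in the genome was not tested.

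**Figure D1:**
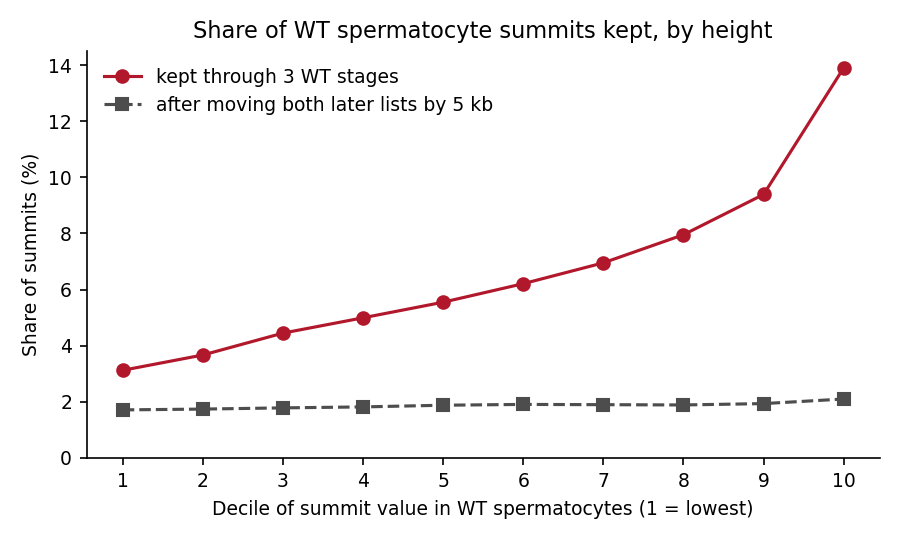
Share of autosomal WT spermatocyte summits that were kept (percent, circles), by decile of summit value from lowest to highest, with the share after both later WT lists were moved by 5 kb (squares). The kept share is 3.12% in the lowest and 13.9% in the highest decile, while the share after the move stays between 1.71% and 2.10%.

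The heights of members were less alike between the condensing stage and the earlier ones than between the earlier 2. Relative to the median of each list, the members stood at 1.12 in spermatocytes (quartiles 0.931 and 1.38), at 1.13 in round spermatids (0.933 and 1.40) and at 1.04 in condensing spermatids (0.920 and 1.20). Members of the highest spermatocyte decile stood at 1.62, 1.40 and 1.12 at the 3 stages. Those of the lowest decile stood at 0.741, 0.983 and 1.0. These deciles were cut on the spermatocyte value, so levels nearer the median in the other lists can come from that choice alone. Each list also has few low values, with 1st percentiles of 172, 176 and 168 at medians of 232, 240 and 200. Across the 350789 members, Spearman's rho of the summit value was 0.406 between spermatocytes and round spermatids, 0.180 between round and condensing spermatids and 0.191 between spermatocytes and condensing spermatids. These points share their DNA, and with it base composition and the copy number of repeats, and no test was made.

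Members were slightly less fuzzy than other summits of the same height. The fuzziness score is the deposited measure of the scatter of fragments at a position. All comparisons with other summits below are weighted so that the deciles of summit value count as they do among the members. The median score in spermatocytes was 52.5 for members and 52.9 for the others, a difference of -0.406 ± 0.111 (SD over 19 autosomes), with members lower on all 19. With matching within 40 bp in place of 20 bp the difference was -0.0882, within its SD of 0.110. In the highest decile the medians were 50.5 and 51.3, and in the second decile 54.6 for both. The quartiles overlap widely, from 49.4 to 55.3 for members and from 49.8 to 55.6 for the others. As called in round spermatids, members were also less fuzzy than other summits of that list at the same height, with 52.3 against 52.8 (difference -0.467 ± 0.0609). In condensing spermatids the medians were 54.0 and 54.1, and the difference of -0.0273 was within its SD of 0.0443.

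**Figure D2:**
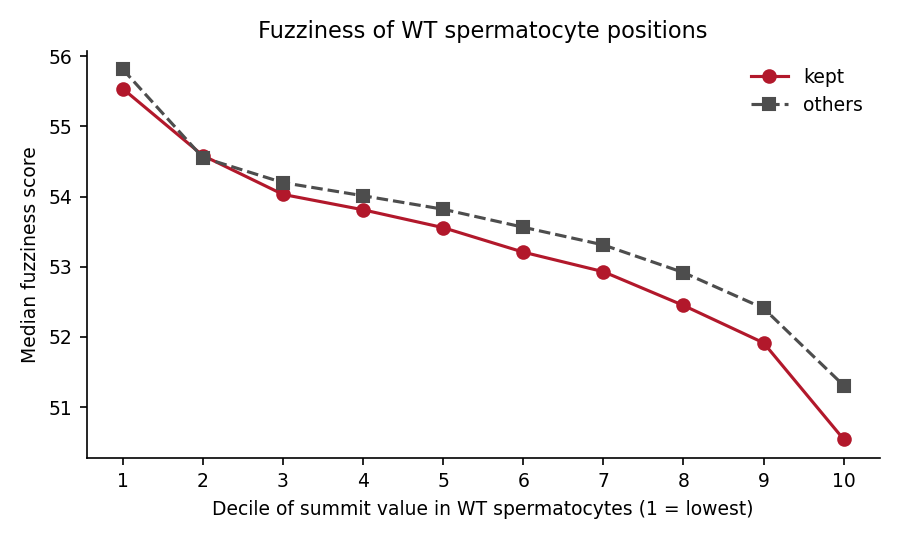
Median fuzziness score of WT spermatocyte positions (vertical axis, does not start at 0) by decile of summit value, for kept summits (circles) and other summits (squares). Kept summits lie below the others in 9 deciles, with 50.5 against 51.3 in the highest, and level with them in the second.

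The lower fuzziness went with the match in round spermatids rather than with the match in condensing spermatids. Spermatocyte summits matched only in round spermatids (1627593 summits) had a median score of 52.4, against 52.5 for members. Summits matched only in condensing spermatids (448762) had 53.5 and those matched in neither list (2749704) had 53.3. Seen the other way, 8.17% of the sharpest decile of spermatocyte summits were kept (1.52% after the move) and 4.39% of the fuzziest decile (2.11% after the move). Among summits that were in the sharpest decile and also in the highest decile of summit value 17.95% were kept, 9.90 times the share after the move.

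Members had regular neighbours somewhat more often than other summits, and so did summits matched only in round spermatids. A neighbouring spermatocyte summit 160 to 220 bp away, the distance of the next nucleosome in an array, was present on at least 1 side for 46.8% of members and 43.3% of the others (41.2% of all spermatocyte summits). The difference was 3.54 ± 0.747 percentage points and had the same sign on all 19 autosomes. Such neighbours on both sides were present for 9.21% of members and 7.65% of the others. The median distance to the nearest summit was 190 bp in both sets. Of spermatocyte summits with regular neighbours on both sides 8.94% were kept, against 6.13% of those with none, with 2.23% and 1.76% after the move.

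The second array peak, near 370 bp, stood out more around members in H2A.L.2-less round spermatids and spermatocytes, which the rule did not use. H2A.L.2-less condensing spermatids showed no such difference. The density of summits by distance was divided by its mean from 800 to 1000 bp, and regularity was read as the second peak, near 370 bp, over the trough before it, near 280 bp. Around members this ratio was 2.19 ± 0.0975 in H2A.L.2-less round spermatids, and around the others 1.75 ± 0.0303. In H2A.L.2-less spermatocytes it was 2.03 ± 0.0601 around members and 1.89 ± 0.0337 around the others. Members also had a counterpart within 20 bp in these lists more often than the others. The shares were 44.8% against 31.2% in H2A.L.2-less round spermatids and 52.6% against 39.6% in H2A.L.2-less spermatocytes. How far the ratio depends on these shares was not tested. In WT spermatocytes, the list that the members come from, it was 1.95 ± 0.0605 and 1.79 ± 0.0283. Condensing nucleosomes had no peak at 370 bp. Around members their density had low maxima at 130, 180 and 230 bp, with 1.09, 1.19 and 1.17 in H2A.L.2-less and 1.19, 1.23 and 1.19 in WT condensing spermatids. At 370 bp the densities were 1.03 and 1.02. The WT condensing list is part of the rule, so its curve around members is given as a description. Around the other summits the values were 1.17 and 1.17 at 180 bp, below the 1.20 and 1.18 at 120 bp, and 1.03 and 1.02 at 370 bp.

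**Figure D3:**
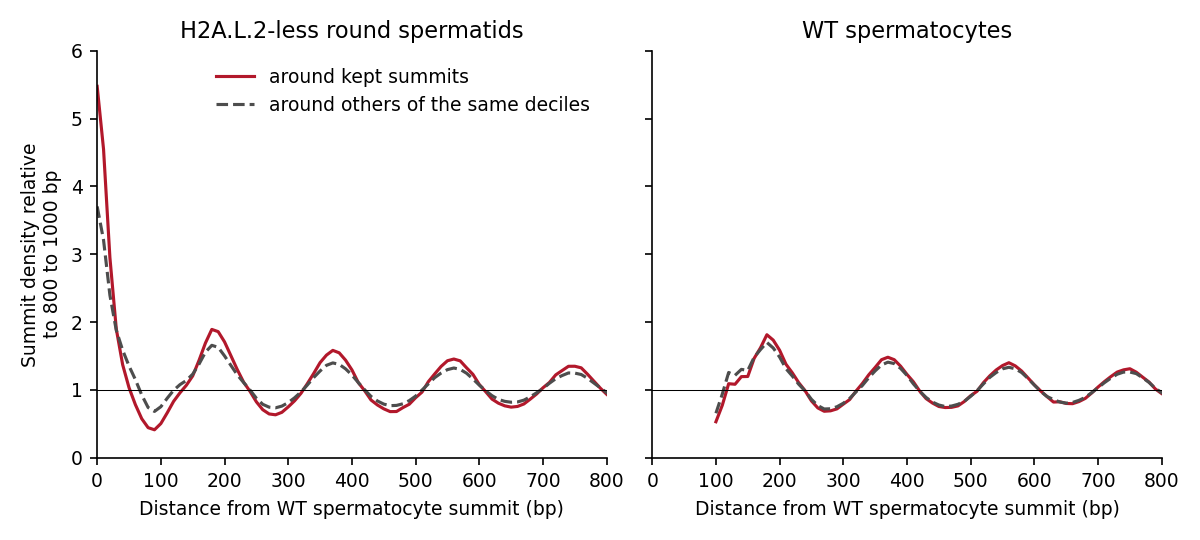
Density of nucleosome summits by distance (bp) from WT spermatocyte summits, relative to the mean at 800 to 1000 bp, in H2A.L.2-less round spermatids (left) and WT spermatocytes (right, from 100 bp, since no summits of a list are closer). Solid lines are around kept summits and dashed lines around other summits of the same deciles; at 180 bp the solid and dashed lines stand at 1.89 and 1.66 on the left and at 1.81 and 1.70 on the right.

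Members lay in regions with more called positions, as did summits matched only in condensing spermatids. The median 100 kb window around a member held 258 WT spermatocyte positions, against 250 around the others, a difference of 8 ± 4.25 positions with members higher on 18 of 19 autosomes. For WT condensing nucleosomes the medians were 188 and 176, with members higher on all 19. For H2A.L.2-less small structures they were 208 and 191, and for WT small structures 287 and 267. Summits matched only in condensing spermatids had medians of 259 WT spermatocyte and 188 WT condensing positions, like the members. Those matched only in round spermatids had 248 and 175, and those matched in neither list 250 and 176. Density also sets how often chance gives a match. In the decile of summits with the fewest spermatocyte positions per 100 kb (4 to 136) 5.62% were kept, 7.98 times the share after the move, and in the densest decile (338 to 489) 8.15%, which was 2.57 times. Over 23198 windows of 100 kb with at least 100 spermatocyte summits, the kept share had a median of 6.38% and lay between 3.0% and 10.2% in the middle 90%. Across these windows its correlation with the number of WT condensing positions was r = 0.540 (Spearman's rho 0.524), as a description, since those positions are part of the rule and windows are not replicates.

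The windows richest in members held many extreme summits. On chromosome 9 from 3000001 to 3100000, 173 of 374 summits were kept, or 46.3% (11.8% after the move), and 191 of the 374 were among the highest 0.1% of the list. On chromosome 10 from 57600001 to 57700000, 48 of 109 were kept (44.0%, 5.50% after the move), with 44 among the highest 0.1%. On chromosome 11 from 3000001 to 3100000, 171 of 435 were kept (39.3%, 7.36% after the move), with 345 among the highest 0.1%. In 12 of the 23198 windows no summit was kept. The 3 named below also had 0 matches after the move, so the move gave the same share there. The first of these in genome order, at 1 per chromosome, were on chromosome 6 from 21200001 to 21300000 (117 spermatocyte and 51 WT condensing positions, 0 kept, which allows a share of up to 2.56%), on chromosome 7 from 93800001 to 93900000 (100 and 74, up to 3%) and on chromosome 8 from 51300001 to 51400000 (126 and 54, up to 2.38%).

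Members had counterparts in every H2A.L.2-less nucleosome list more often than other summits of the same height. Within 20 bp, 52.6% of members had a summit in H2A.L.2-less spermatocytes and 39.6% of the others (36.1% of all spermatocyte summits), a difference of 13.1 ± 0.408 points. In H2A.L.2-less round spermatids the shares were 44.8% and 31.2% (29.0% of all), a difference of 13.6 ± 0.628 points. In H2A.L.2-less condensing nucleosomes they were 28.0% and 16.3% (15.8% of all), a difference of 11.7 ± 0.915 points. After moving the H2A.L.2-less lists by 5 kb the shares were 11.3%, 10.5% and 9.75% for members and 11.03%, 10.3% and 8.97% for the others. Each difference had the same sign on all 19 autosomes and was larger than its SD over autosomes.

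**Figure D4:**
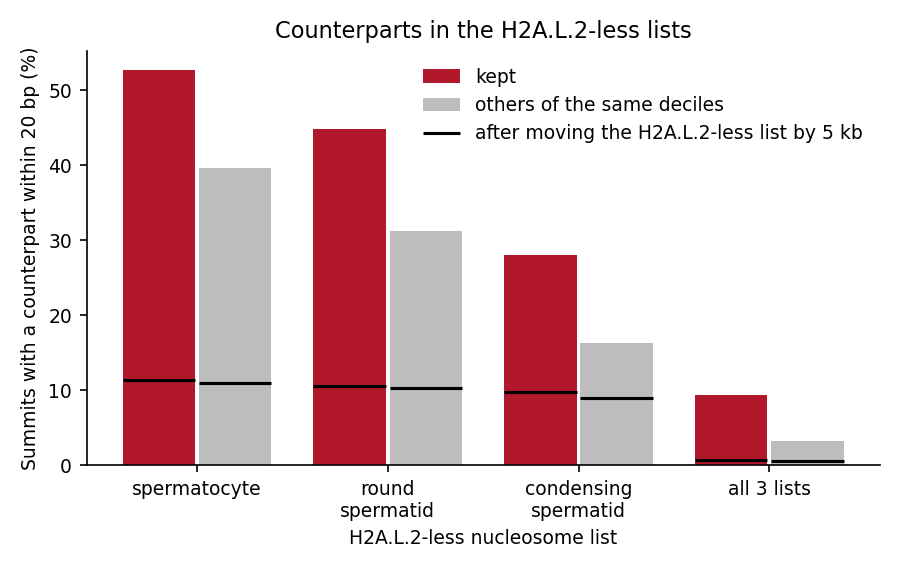
Share of WT spermatocyte summits with a summit within 20 bp in each H2A.L.2-less nucleosome list and in all 3 lists (percent), for kept summits (dark bars) and other summits of the same deciles (light bars). Black lines give the shares after the H2A.L.2-less list was moved by 5 kb; kept summits stand at 52.6%, 44.8%, 28.0% and 9.41%.

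A counterpart in all 3 H2A.L.2-less lists was present for 32992 members, or 9.41%, and for 3.27% of the others (2.95% of all spermatocyte summits), a difference of 6.13 ± 0.735 points. After the move the shares were 0.659% and 0.588%. In the highest decile of summit value the shares were 19.1% of members and 6.54% of the others, and in the lowest decile 3.65% and 0.764%. By contrast 22.9% of members had no counterpart in any H2A.L.2-less list, against 38.8% of the others. The members found in all 6 nucleosome lists were less fuzzy than other members of the same deciles, with 50.8 against 51.9 (difference -1.13 ± 0.226). Of these members 45.8% came from the highest decile, and height within that decile was not matched.

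The counterpart in H2A.L.2-less condensing spermatids went mainly with the match in WT condensing spermatids. It was present for 28.0% of members and for 24.1% of summits matched only in WT condensing spermatids. It was present for 16.7% of those matched only in WT round spermatids and for 14.6% of those matched in neither. After the move these shares were 9.75%, 9.58%, 8.91% and 8.91%. For the counterpart in H2A.L.2-less spermatocytes the order of the middle groups was the other way, with 52.6%, 38%, 47.9% and 33.8% in the same sequence.

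The same rule within the H2A.L.2-less lists kept 272208 of 4764344 spermatocyte summits, or 5.71% ± 0.312 (SD), which was 3.57 times the 1.60% after the move. In WT these values were 6.78% and 3.62 times. The lists differ in length, with 4764344 spermatocyte and 4700815 round spermatid positions without H2A.L.2 and 5176848 and 5322422 in WT. The genotypes are therefore not compared by these shares. Of the WT members 31610, or 9.01%, lay within 20 bp of a summit kept in the H2A.L.2-less lists, 12.0 times the 0.749% after the move, and these were 11.6% of the H2A.L.2-less kept summits. Of the other WT summits of the same deciles 3.29% lay at such a summit, 5.02 times the 0.656% after the move. With 1 library per genotype, how much of the non-overlap libraries of 1 genotype would show was not tested.

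Small structures of condensing spermatids lay at members more often than at other summits of the same height, in both genotypes. An H2A.L.2-less small-structure summit was within 40 bp of 35.5% of members and 29.0% of the others (28.8% of all spermatocyte summits), a difference of 6.56 ± 0.565 points. A WT small-structure summit was within 40 bp of 49.6% of members and 40.0% of the others (39.4% of all), a difference of 9.59 ± 0.392 points. After the 5 kb move the H2A.L.2-less shares were 20.3% and 18.8%, and the WT shares 25.9% and 24.2%. Members thus stood at 1.75 times chance and the others at 1.54 times for H2A.L.2-less small structures, and at 1.92 and 1.65 times for WT ones. The small-structure lists differ in length (4047666 autosomal summits without H2A.L.2, 5291731 in WT), so the genotypes are not compared by these shares. Small structures of both genotypes were present at 27.7% of members and 20.9% of the others. The 20 bp limit of the rule made little difference to these shares. Just inside it an H2A.L.2-less small structure was near 35.6% of summits, and just outside, at 21 to 30 bp, near 35.0%. For WT small structures these shares were 49.7% and 48.6%.

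Around members the small structures had a higher maximum at the summit and a deeper trough beside it than around other summits. At the summit of members the density of H2A.L.2-less small structures was 2.00 times and that of WT small structures 2.14 times the mean at 800 to 1000 bp, against 1.68 and 1.76 times around the others. At 100 bp it was 0.647 and 0.620 around members, and 0.945 and 0.923 around the others. A second maximum stood at 180 bp, with 1.25 and 1.26 around members and 1.11 and 1.11 around the others. Farther out the curves nearly met. At 290 bp the densities were 1.20 and 1.21 around members and 1.17 and 1.18 around the others, and at 370 bp 0.931 and 0.914 around members and 0.940 and 0.932 around the others. By fate, a WT small structure was near 49.6% of members, 43.3% of summits matched only in round spermatids, 42.9% of those matched only in condensing spermatids and 37.5% of those matched in neither.

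**Figure D5:**
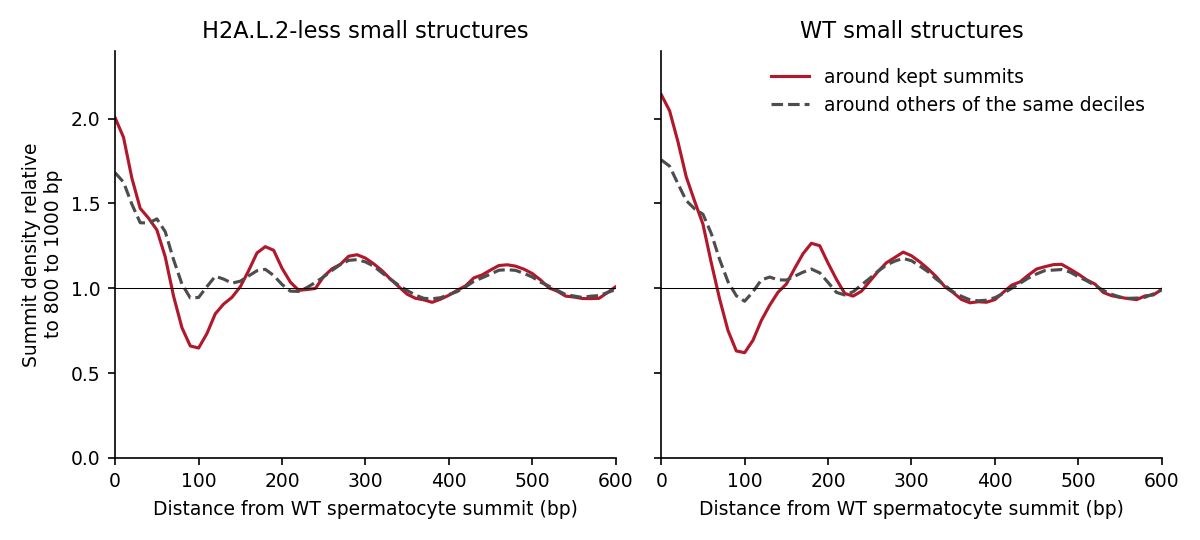
Density of small-structure summits by distance (bp) from WT spermatocyte summits, relative to the mean at 800 to 1000 bp, for H2A.L.2-less (left) and WT (right) condensing spermatids. Around kept summits (solid) the density at 100 bp is 0.647 on the left and 0.620 on the right, against 0.945 and 0.923 around other summits of the same deciles (dashed).

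Single members are given as examples, chosen for low fuzziness and high summit value. They are the 5 with the lowest mean fuzziness over the 6 nucleosome lists, taken among 12555 members of the highest spermatocyte decile that had counterparts in all 3 H2A.L.2-less lists and were outside the highest 0.1% of every list, with at most 1 per chromosome and none from chromosome 18. Levels are summit values over the list's median, in the order spermatocyte, round and condensing. On chromosome 4 from 41535531 to 41535671 they were 3.93, 3.75 and 5.77 in H2A.L.2-less cells and 4.09, 3.93 and 4.08 in WT cells, with small structures of both genotypes 10 bp away. On chromosome 1 from 156949641 to 156949781 they were 4.05, 3.84 and 5.29 in H2A.L.2-less cells and 3.38, 2.73 and 5.54 in WT cells. These positions were high at all stages of both genotypes. Over all members the WT spermatocyte level ran from 0.448 to 92505, so the examples do not show the range of levels.

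On chromosome 12 from 25996131 to 25996271 the levels were 3.804, 4.51 and 4.46 in H2A.L.2-less cells and 3.29, 2.93 and 4.84 in WT cells. On chromosome 14 from 88744871 to 88745011 they were 1.79, 1.57 and 5.65 in H2A.L.2-less cells and 1.79, 0.867 and 4.0 in WT cells. Like the position on chromosome 1, this position was highest at the condensing stage in both genotypes. It stood alone, with the nearest spermatocyte summit 1740 bp away and the nearest small structures of both genotypes more than 1000 bp away. On chromosome 13 from 65951201 to 65951341 the levels were 2.29, 1.49 and 2.21 in H2A.L.2-less cells and 1.59, 0.80 and 1.16 in WT cells. With 1 library per group the differences between genotypes at these positions have no replicate check.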

How the data were processed

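Protected DNA of 8 libraries, 1 per stage, genotype and fragment class, was analysed from lists of positions. Samples were grouped by their titles. Bowtie2 2.2.9, deepTools 2.2.4 and mm9 are named in the submitters' processing notes. Per the series description, 3 runs per sample were merged after alignment. The sources used here do not give the position caller's version or thresholds, or how duplicate and multiply aligned reads were treated. Summit values, as deposited, are a coverage signal in multiples of 4, with no scaling to depth that could be seen. The fuzziness score was used as deposited. Positions are 140 bp wide, and no summits of a list are closer than 100 bp.

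Members, comparisons and lists were chosen with earlier results of these data known. Chance was the share after moving lists by 5000 bp. Other summits were weighted to the members' deciles of summit value. Windows named are those with the 3 highest and 3 lowest kept shares, at most 1 per chromosome. With several windows at 0, the first in genome order were taken. Chromosome 18 was left out of the single named positions. Genes and sequence under the positions were not analysed here, since the tables at hand were of another build. Wilson intervals are at 95%. Python 3.11.15, numpy 2.4.6, pandas 2.3.3, scipy 1.17.1 and matplotlib 3.10.9 were used. Scripts were tested on simulated data, in which 30.1% of 38000 summits were made to be kept and 30.1% were recovered, and a fuzziness difference of -2 was recovered as -1.97. A presence difference of 0 points was recovered as -0.582 points.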

Additional observations from a re-analysis of the deposited data

Results flagged for a closer look

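Both sex chromosomes lay outside the autosomal comparisons and are given because they held kept summits. On the X, 4529 of 130101 WT spermatocyte summits met the rule, or 3.48% (507 summits and 0.390% after the 5 kb move). On the Y, 345 of 2704 met it, or 12.8% (48 summits and 1.78% after the move). The observed shares were 8.93 times chance on the X and 7.19 times on the Y. The kept share on the X was lower than the 6.78% of the autosomes, without matching for summit height, density or chromosome copy number. Among autosomal summits with 4 to 136 spermatocyte positions per 100 kb, 5.62% were kept, 7.98 times the 0.705% after the move. Density was not matched for the X and Y, so their ratios are not compared with the autosomal 3.62. On the X 16.3% of summits were matched in round spermatids and 6.54% in condensing spermatids.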

How the results depend on the processing

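No paired analysis was possible because each group holds 1 library and no result comes from a test. All results kept their direction under the alternatives run, of which only comparison at equal summit value was chosen after seeing the data. Counting only pairs of each other's nearest summits changed no value, because summits of a list are at least 100 bp apart. The kept share was 3.14% within 10 bp, 15.2% within 40 bp, 8.97% for summits at or above the median value, 6.72% without the highest 0.1% of positions and 6.70% with equal numbers (3748879 per list). Its ratio to chance was 4.40, 2.74, 4.61 and 4.54 within 10 bp, within 40 bp, at or above the median and with equal numbers, and 3.66 with lists moved by 10 kb. The fuzziness difference was -0.0882 within 40 bp, where its SD over autosomes was 0.110, and was -0.293 with equal numbers. The regular-neighbour difference was 2.997 points within 10 bp, 4.29 within 40 bp, 2.63 at or above the median, 2.79 within quintiles of both 100 kb densities, 3.19 for neighbours 170 to 210 bp away and 3.35 at equal summit value. The density difference was 37 positions in 1 Mb windows, within its SD of 69.1. For presence in all 3 H2A.L.2-less lists the difference was 3.88 points within 10 bp, 9.55 within 40 bp, 7.30 at or above the median, 5.53 without the highest 0.1%, 6.78 with equal numbers and 5.79 at equal summit value. The small-structure difference, for H2A.L.2-less and then WT, was 6.14 and 8.99 points within 10 bp, 5.26 and 8.03 at or above the median, 6.22 and 9.32 without the highest 0.1%, 6.30 and 8.48 with equal numbers, 5.24 and 8.21 within density quintiles, 4.68 and 6.89 for small structures within 20 bp, and 6.18 and 9.25 at equal summit value. The causes were not tested. Summits below a list's calling floor are missing from it, so a kept share depends on depth.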

Other observations

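A kept summit was followed by another slightly more often than other summits were, at array distance and beyond it. When the next spermatocyte summit lay 160 to 220 bp away, it was kept for 9.77% of members and for 7.99% of other summits of the same deciles, a difference of 1.79 ± 0.635 points (SD over 19 autosomes). With 100 kb density matched as well, the share after other summits was 8.22%, and the ratio 1.19. A like excess was present at other distances, with 8.29% and 7.12% for a next summit more than 220 and up to 300 bp away and 7.34% and 6.19% for one more than 500 and up to 1000 bp away. Without the highest 0.1% of positions the shares at 160 to 220 bp were 9.47% and 7.91%. The longest run of members in a row, each within 220 bp of the next, held 8 and ran from summit 39981791 to 39982971 on chromosome 17, and its summits stood between 14.4 and 24.8 times the list median. The next 2 runs, of 7 members each, lay on chromosome 9 and began at 3002691 and 3015001. All summits of these 3 runs were among the highest 0.1% of the list. Whether each is a single position in the genome was not tested.

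With the highest 0.1% left out, the windows richest in members changed. They were then chromosome 13 from 65700001 to 65800000, with 74 of 205 summits kept (36.1%, 4.88% after the move), chromosome 6 from 114500001 to 114600000, with 97 of 308 (31.5%, 9.09% after the move), and chromosome 7 from 9700001 to 9800000, with 49 of 158 (31.01%, 3.797% after the move). These runs and windows were picked with their values known.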
